A study of Mus musculus with 30 samples.

Results

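Splenic B cells of young mice homozygous for a mutant Ikzf3 allele were compared with splenic B cells of young wild-type mice. The comparison takes 6 of the 30 samples of the series, 3 RNA-seq libraries from each genotype, and these were chosen by their labels alone. The mice were C57BL/6 and 2 to 3 months old when the cells were taken, with no treatment named. Mutant mice carry a conditional knock-in allele, labelled Ikzf3 fl/fl, that restricts expression of the L161R missense form of Ikzf3 to B cells. Wild-type mice carry the unaltered gene. The labels used here do not name the Cre driver, do not say whether the wild-type mice carry Cre, and do not state that each library is a separate animal, so the p-values measure the spread between these libraries. Red cells were lysed and B cells were isolated with magnetic beads, and no step selected a B cell subset. The deposited table has 27179 rows, of which 26266 with a gene name were kept, and 12219 of them reached 1 TPM (a transcript level scaled by gene length and by library) in at least 3 libraries and were tested.

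The product of Ikzf3 is Aiolos, a member of the Ikaros family of zinc finger proteins that B cells raise as they mature. Aiolos and Ikaros bind DNA as dimers, and they recruit the NuRD chromatin remodelling complex to repress or activate target genes. B cells that meet antigen signal through the B cell receptor and the kinases Lyn, Syk and Btk, and within minutes they transcribe immediate early genes such as Fos, Egr1 and Nr4a1. The mutated residue lies in the DNA-binding part of Aiolos, and the matching residue of the human protein is a recurrent site of mutation in chronic lymphocytic leukaemia.

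Ikzf3 (chr11:98464610-98546031) was itself higher in the mutant cells. It stood at 249.8, 214 and 276 TPM in the wild-type and 381, 422 and 438 TPM in the homozygous libraries, with no overlap between groups (log2 change 0.75, SE 0.11, adjusted p = 0.000869). TPM sums all transcripts of the gene and cannot tell the mutant from the normal sequence, so these levels are no check of genotype. Among the other family members, Ikzf5 rose by 0.54 on the log2 scale, and Ikzf1, which encodes Ikaros, had a log2 change of 0.10 (adjusted p = 0.268). All 6 libraries held B cell transcripts at a like level: the 12 defining genes of B cells, among them Ms4a1 and Cd79a, summed to 20939, 19421 and 22388 TPM in the wild-type and 22102, 21953 and 22881 TPM in the homozygous libraries, and the groups overlapped.

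The wild-type group is not uniform, and this touches all results below. Xist, the RNA of the inactive X chromosome, measured 80.9, 63.1 and 0.0288 TPM in the wild-type group and at most 0.0567 TPM among homozygous libraries, whereas Y-linked Ddx3y stood at 0.00435, 0.00866 and 54.3 TPM in the wild-type and 107, 133 and 148 TPM in the homozygous libraries. Wild-type libraries 1 and 2 thus hold RNA of female cells, and wild-type 3 and all homozygous libraries RNA of male cells, so that sex differs with genotype. Markers of other spleen cells also differed. Neutrophil markers summed to 899, 2735 and 1178 TPM in the wild-type and 178, 121 and 43.5 TPM in the homozygous libraries, and macrophage and monocyte markers to 2898, 4253 and 879 TPM in the wild-type and 626, 898 and 399 TPM in the homozygous libraries. The first sum did not overlap between groups, and the second overlapped, with wild-type 3 below homozygous 2. Among the defining markers, neutrophil S100a8 stood at 309.7, 948 and 381 TPM in the wild-type and 59.1, 38.4 and 12.2 TPM in the homozygous libraries and macrophage Lyz2 at 1443, 2330.0 and 222 TPM in the wild-type and 163, 129 and 58.2 TPM in the homozygous libraries. In bulk RNA, fewer cells of a type and less RNA per cell cannot be told apart. The counts of each gene list below are therefore also given with wild-type libraries 1 and 2 left out, which leaves the 4 male libraries and assumes that the single wild-type library varies like the homozygous ones. There a gene again had to reach 1 TPM in at least 3 libraries, so wild-type 3 alone could not bring a gene in. Genes nearly absent from homozygous cells were therefore not tested in that comparison, and its counts can miss falls.

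**Figure D1:**
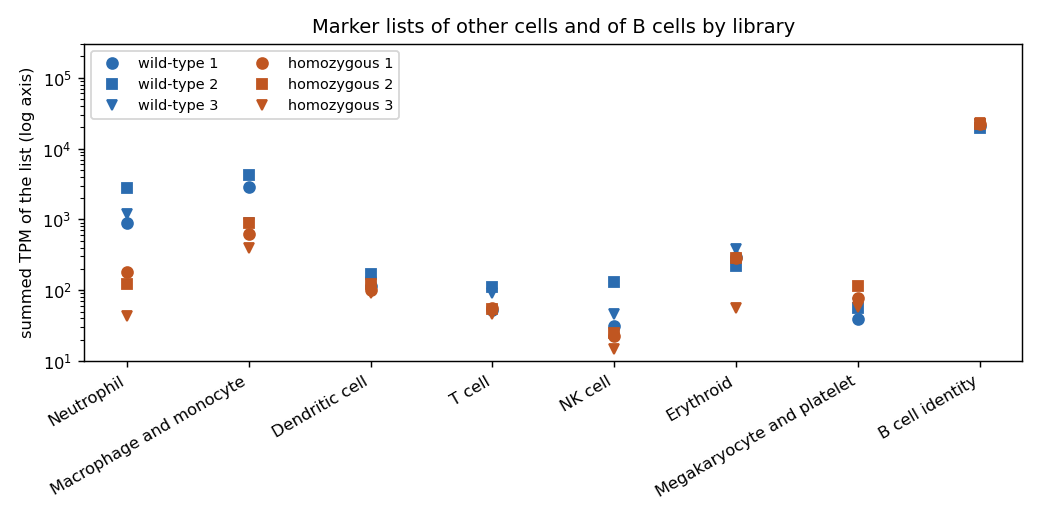
Summed TPM (vertical axis, log scale) of marker lists for other spleen cells and for B cells (horizontal axis) in each of the 3 wild-type and 3 homozygous libraries. Neutrophil markers lie higher in all wild-type libraries, and the B cell list lies near 20939 TPM in wild-type 1 with all other libraries close to it.

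Most of the transcriptome shifted a little. A gene is called higher or lower when limma's moderated test gave an adjusted p under 0.05 over all genes tested. Of 12219 genes, 4698 were higher (38.4%) and 1539 lower (12.6%) in homozygous cells, 51% in all. The groups did not overlap for 7499 genes (61.4%), with the homozygous libraries higher for 44.5% of genes and lower for 16.9%. Changes of at least 2-fold were fewer, with 468 genes higher (3.83%) and 234 lower (1.92%). The median log2 change of all genes was 0.18, and higher genes made up 75.3% of calls. After rescaling by trimmed means (TMM), which sets that median to 0.00, 2900 genes were higher (23.7%) and 2656 lower (21.7%), so that higher genes made up 52.2% of calls. With the male libraries alone, 2221 genes were higher (18.7%) and 720 lower (6.05%) of 11899. Of 6237 genes called with all libraries, 6120 were also tested without wild-type 1 and 2, and all 6120 kept their sign. The male libraries were also part of the fit that chose these genes, so a kept sign was likely beforehand. It is no independent check, and whether the changes hold apart from sex was not tested. The counts of each list below stand against these shares of all genes, and a list near them shows no more than the general shift. Where a count of called genes is 0, the number at an unadjusted p under 0.05 follows and is marked unadjusted.

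Genes of the immediate early response stood among the largest rises. AP-1 is a dimer of Fos and Jun family proteins that binds DNA within minutes of stimulation. Of its genes, 13 were tested, 9 higher and 2 lower, with a median log2 change of 1.22 against 0.18 over all genes. Fosb stood at 37.7, 27.9 and 15.6 TPM in the wild-type and 489.8, 477 and 394 TPM in the homozygous libraries (log2 change 4.09, SE 0.33, adjusted p = 0.000734), the second largest rise among called genes with a mean of at least 10 TPM. Fos stood at 179, 219 and 64.7 TPM in the wild-type and 775, 843 and 643 TPM in the homozygous libraries (log2 change 2.45, SE 0.51, adjusted p = 0.0158). No homozygous library overlapped a wild-type library for either gene, and wild-type 3 held the least of both. Jun stood at 141, 139 and 104 TPM in the wild-type and 562, 495 and 539 TPM in the homozygous libraries (log2 change 2.06, SE 0.12, adjusted p = 1.89e-05), and Atf3, a stress-induced partner of Jun, at 4.57, 8.21 and 0.765 TPM in the wild-type and 43.7, 41.3 and 22.8 TPM in the homozygous libraries (log2 change 2.99, SE 0.71, adjusted p = 0.0234). Junb (1.75), Jund (1.22) and the small Maf genes Maff (1.25), Mafk (0.96) and Mafg (0.81) also rose. The 2 members called lower, Batf (-0.64) and Batf3 (-0.73), encode partners of Jun that lack a transactivation domain. Another member, not called, had the lowest log2 change of the list, -0.94. TMM rescaling gave 9 higher and 3 lower. Restricted to the 4 male libraries, the counts were 9 higher and 2 lower of 12.

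Most zinc finger and nuclear receptor genes that mark recent antigen receptor signalling were higher too. Of the list of EGR, NR4A and other early activation genes, 29 were tested, 20 higher and 0 lower (0 unadjusted), with a median of 0.79. Nr4a1, a nuclear receptor gene widely used to report antigen receptor signals, stood at 52.7, 55.5 and 42.0 TPM in the wild-type and 306, 335 and 265 TPM in the homozygous libraries (log2 change 2.57, SE 0.12, adjusted p = 5.16e-06). Egr1 stood at 35.9, 38.2 and 26.4 TPM in the wild-type and 144, 204 and 204 TPM in the homozygous libraries (log2 change 2.42, SE 0.19, adjusted p = 0.000296) and Egr2 at 4.27, 5.12 and 6.31 TPM in the wild-type and 23.0, 21.5 and 25.7 TPM in the homozygous libraries (log2 change 1.98, SE 0.14, adjusted p = 4.9e-05). All homozygous libraries lay above all wild-type libraries for these 3 genes. Cd69, an early activation marker that holds lymphocytes in tissue by opposing the receptor S1pr1, stood at 69.3, 65.7 and 58.5 TPM in the wild-type and 428, 455 and 415 TPM in the homozygous libraries (log2 change 2.73, SE 0.09, adjusted p = 9.33e-07), while S1pr1 itself rose by 0.33. Nr4a2 (2.08), Egr3 (1.48), Ppp1r15a (2.07), Rgs1 (1.92), Rgs2 (1.57), Trib1 (1.49) and Zfp36l1 (1.29) rose as well. Other members of the same response did not: Ier3 (-0.26, adjusted p = 0.428), Btg2 (0.19, adjusted p = 0.101), Gadd45b (0.24, adjusted p = 0.153) and Nab2 (0.11, adjusted p = 0.545) were not called. For the 4 male libraries, the counts were 16 higher and 0 lower (0 unadjusted) of 29, and after TMM rescaling 15 higher and 1 lower of 30.

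Feedback genes of the ERK kinase path were split. Of this list, 12 were tested, 6 higher and 0 lower (1 unadjusted), with a median of 0.36. Dusp1, a phosphatase of nuclear MAP kinases, stood at 61.5, 90.6 and 30.7 TPM in the wild-type and 161, 155 and 137 TPM in the homozygous libraries (log2 change 1.42, SE 0.41, adjusted p = 0.0403), and Dusp4 at 13.6, 11.8 and 24.0 TPM in the wild-type and 48.9, 42.6 and 42.9 TPM in the homozygous libraries (log2 change 1.45, SE 0.25, adjusted p = 0.00472). Both groups were apart for each, and wild-type 2 held the most Dusp1 of its group. Dusp6 and Spry2, which are commonly read as signs of ERK activity, were not called, with log2 changes of 0.12 (adjusted p = 0.204) and -0.21 (adjusted p = 0.506). TMM rescaling gave 5 higher and 2 lower, and leaving out wild-type 1 and 2 gave 5 higher and 0 lower (1 unadjusted) of 12.

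The promoters of 4 early genes that rose are shown because each holds a motif that early gene promoters are known for, spelled in capitals, in the 150 bases before the RefSeq start (build GRCm38.p6, 5′ to 3′ on the gene's strand). Zfp36, whose protein destabilises AU-rich mRNAs, is on the minus strand at chr7:28379229-28379378 and Srf, the factor that binds CArG boxes, on the minus strand at chr17:46556163-46556312. Dusp1 is on the minus strand at chr17:26508473-26508622, and Ppp1r15a, which encodes a subunit of a phosphatase of eIF2α, on the minus strand at chr7:45526269-45526418. The first and second hold CArG boxes and the others a cyclic AMP response element (CRE, TGACGTCA).
Zfp36: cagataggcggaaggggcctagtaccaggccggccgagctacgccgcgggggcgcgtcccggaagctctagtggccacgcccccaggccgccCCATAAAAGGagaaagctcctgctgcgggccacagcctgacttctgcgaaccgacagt
Srf: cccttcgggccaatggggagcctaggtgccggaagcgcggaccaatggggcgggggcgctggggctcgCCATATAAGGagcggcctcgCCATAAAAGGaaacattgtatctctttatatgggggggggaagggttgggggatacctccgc
Dusp1: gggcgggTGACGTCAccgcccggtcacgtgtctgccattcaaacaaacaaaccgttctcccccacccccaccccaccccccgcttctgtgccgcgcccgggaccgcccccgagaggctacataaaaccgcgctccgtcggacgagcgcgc
Ppp1r15a: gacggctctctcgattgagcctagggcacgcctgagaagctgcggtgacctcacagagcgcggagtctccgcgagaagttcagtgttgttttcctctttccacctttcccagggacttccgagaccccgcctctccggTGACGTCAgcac

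The printed CArG boxes start 58 bases before the start of Zfp36 and 82 and 62 bases before that of Srf, and the CREs 143 bases before the start of Dusp1 and 12 before that of Ppp1r15a. Motifs were counted over windows from 250 bases before to 50 after each start, searched on both strands. A CArG box lay in 7 of 56 windows (12.5%) of 44 tested AP-1, EGR, NR4A and ERK feedback genes. Several of the 7 are windows of the single gene Egr2, most of them overlapping. The others belong to Srf, Zfp36 and Dusp5, so windows are not independent genes. The share over all genes tested was 1.25% (95% Wilson interval 1.06% to 1.47%) and over all 32851 windows for which RefSeq gives a promoter 1.63%. The CRE lay in 8.93% of the early gene windows and 3.13% of all tested. The AP-1 site (TGACTCA or TGAGTCA) lay in 3.13% of windows of genes called higher, 4.50% of those called lower and 3.54% of all tested. The core of the Ikaros family motif (TGGGAA or TTCCCA) lay in 22.2% of windows of higher genes and 26.9% of those of lower genes, against 22.9% of all tested. The early gene windows include genes not called here, so their CArG and CRE shares describe the lists and not these libraries. A match is a stretch of letters and is not a bound site.

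Kruppel-like factors and Myc include further early genes. Of 11 Kruppel-like factor genes tested, 6 were higher and 2 lower. Klf4 stood at 14.0, 15.4 and 7.53 TPM in the wild-type and 95.4, 91.9 and 77.1 TPM in the homozygous libraries (log2 change 2.79, SE 0.26, adjusted p = 0.000732) and Klf6 at 59.9, 75.1 and 70.1 TPM in the wild-type and 451, 487 and 456 TPM in the homozygous libraries (log2 change 2.75, SE 0.10, adjusted p = 1.12e-06). Klf2, which keeps follicular B cells in circulation and limits proliferation, rose by 1.38 and Klf7 by 0.94, whereas Klf10 (-0.79) and Klf11 (-0.51), both known as genes induced by TGF-β, fell. Myc, the growth-promoting factor induced by antigen, stood at 63.7, 65.2 and 74.5 TPM in the wild-type and 240.1, 226 and 198 TPM in the homozygous libraries (log2 change 1.69, SE 0.10, adjusted p = 1.45e-05), with no overlap. Its partner network gave 5 higher (45.5%) and 1 lower (9.09%) of 11, close to the shares of all genes (38.4% and 12.6%), among them Mlxip (1.26) and Mga (0.74) higher and Mxd3 (-0.44) lower. When only male libraries were compared, the counts were 5 higher and 1 lower of 11 for Kruppel-like factors and 3 higher and 0 lower (1 unadjusted) of 11 for the Myc network, and TMM rescaling gave 5 higher and 2 lower and 4 higher and 1 lower.

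**Figure D2:**
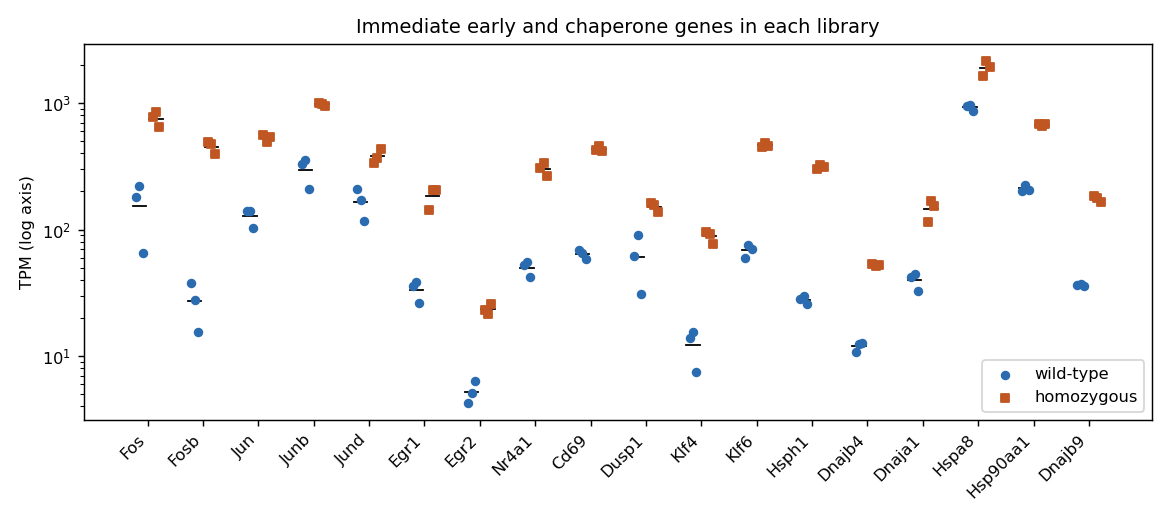
TPM (vertical axis, log scale) of 12 immediate early and related genes and 6 chaperone genes (horizontal axis) in each library, with circles for wild-type and squares for homozygous libraries and a line at each group mean. Every homozygous square lies above every wild-type circle for these genes, with Hsph1 among the widest gaps.

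Most chaperone genes rose. The heat shock response is driven by Hsf1, which binds repeats of the letters GAA and TTC upstream of chaperone genes when proteins unfold. Of the list, 27 were tested, 19 higher and 1 lower, with a median of 0.64. Hsph1, a partner of HSP70 that exchanges its nucleotide, stood at 28.1, 29.7 and 26.0 TPM in the wild-type and 304, 323 and 313 TPM in the homozygous libraries (log2 change 3.44, SE 0.08, adjusted p = 1.19e-07). Hsp90aa1, the inducible HSP90, stood at 203, 224 and 207 TPM in the wild-type and 682, 659 and 678 TPM in the homozygous libraries (log2 change 1.67, SE 0.08, adjusted p = 4.01e-06). No library of one group reached the other for either gene. The HSP40 genes Dnajb4 (2.05), Dnaja1 (1.83) and Dnajb1 (1.50), the small chaperone Hspb1 (1.40), the constitutive HSP70 Hspa8 (1.03) and the mitochondrial chaperonin genes Hspd1 (0.95) and Hspe1 (0.60) rose as well, and Hsf1 rose by 0.55. Hspa1a stood at 21.3, 56.1 and 83.9 TPM in the wild-type and 323, 157 and 287 TPM in the homozygous libraries (log2 change 2.37, SE 0.61, adjusted p = 0.0306) and its near-identical copy Hspa1b at 58.3, 165 and 313 TPM in the wild-type and 762, 397 and 677 TPM in the homozygous libraries (log2 change 2.02, SE 0.71, adjusted p = 0.0726). Reads can be shared between these copies, so their separate values are uncertain. The polyubiquitin gene Ubb fell by 0.27, and Stip1 (0.61, adjusted p = 0.119) and Fkbp4 (0.21, adjusted p = 0.405) were not called. The lowest log2 change of the list, in another member, was -1.23. Male libraries by themselves gave 14 higher and 1 lower of 27, and TMM rescaling 14 higher and 1 lower.

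The starts of 3 of these genes are shown with heat shock elements (GAANNTTC or TTCNNGAA) in capitals, again as the 150 bases before the RefSeq start. Hsph1 is on the minus strand at chr5:149636337-149636486, Hspe1 on the plus strand at chr1:55087998-55088147 and Hspa1a on the minus strand at chr17:34972157-34972306. The stretch before Hspe1 also lies before Hspd1, which starts from the opposite strand.
Hsph1: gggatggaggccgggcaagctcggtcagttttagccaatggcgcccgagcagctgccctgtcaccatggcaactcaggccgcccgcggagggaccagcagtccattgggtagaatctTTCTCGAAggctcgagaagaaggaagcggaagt
Hspe1: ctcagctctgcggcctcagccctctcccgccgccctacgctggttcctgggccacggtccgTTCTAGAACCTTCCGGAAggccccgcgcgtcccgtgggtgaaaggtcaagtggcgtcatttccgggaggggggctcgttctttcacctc
Hspa1a: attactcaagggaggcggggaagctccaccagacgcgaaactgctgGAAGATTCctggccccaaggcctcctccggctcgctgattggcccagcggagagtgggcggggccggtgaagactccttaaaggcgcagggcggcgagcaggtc

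The element begins 33 bases before the start of Hsph1 and 104 before that of Hspa1a, and before Hspe1 there are 3 overlapping ones from 89 bases on. Heat shock elements lay in 14 of 29 windows of the 21 heat shock list genes with a promoter in RefSeq (48.3%, 95% Wilson interval 31.4% to 65.6%), against 12.2% of windows of all genes tested. Over all genes called higher the share was 12.1%, and over all called lower 11.9%. The list holds known heat shock genes, called or not, so its high share describes the list and not these libraries. The Wilson interval takes windows as independent, although genes with several starts, such as Hsph1 and Dnajb6, count more than once. Hspd1 and Hspe1 also share their elements.

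In the endoplasmic reticulum, single genes stood out while most of the list did not. Of the chaperone and unfolded protein response genes, 20 were tested, 9 higher and 1 lower, with a median of 0.22 that became 0.03 after TMM rescaling. Dnajb9, a co-chaperone of BiP, stood at 36.3, 37.3 and 35.4 TPM in the wild-type and 183, 177 and 166 TPM in the homozygous libraries (log2 change 2.24, SE 0.07, adjusted p = 9.33e-07), and Hspa5, which encodes BiP, at 389, 394 and 383 TPM in the wild-type and 731, 929 and 822 TPM in the homozygous libraries (log2 change 1.08, SE 0.10, adjusted p = 0.000165). The groups did not overlap for either. The stress factor genes Ddit3 (0.90) and Atf4 (0.79) rose, and Xbp1, the target of IRE1, was not called (-0.26, adjusted p = 0.299). Sdf2l1 fell by 0.56, and the disulfide isomerases Pdia4 (0.07, adjusted p = 0.513) and Pdia6 (0.05, adjusted p = 0.59) were not called. Among the male libraries, the counts were 6 higher and 0 lower (0 unadjusted) of 20, and TMM rescaling gave 4 higher and 2 lower.

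Immediate early, heat shock and splicing genes are also known to rise while tissue is taken apart and cells are sorted. A list of 30 such genes, most of them members of the lists above, had 21 higher and 3 lower, with a median of 1.13. Those that fell, Socs3 (-1.23), Mt2 (-1.86) and Cebpd (-1.44), are cytokine and glucocorticoid responsive genes. The labels give the same isolation protocol for both groups and no date or order of handling, and the part of handling in these rises was not tested. Comparing only male libraries gave 19 higher and 1 lower of 29.

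Regulators of splicing rose with few exceptions. Of the list, 27 were tested, 26 higher and 0 lower (0 unadjusted), with a median of 0.88, and leaving out wild-type 1 and 2 gave 25 higher and 0 lower (0 unadjusted) of 27. TMM rescaling gave 26 higher and 0 lower (0 unadjusted). Hnrnph1, an RNA-binding protein of the spliceosome, stood at 344, 321 and 359 TPM in the wild-type and 715, 808 and 841 TPM in the homozygous libraries (log2 change 1.20, SE 0.09, adjusted p = 7.39e-05), and the SR protein kinase gene Clk1 (1.11), Tra2a (1.23), Pnisr (1.22), Luc7l2 (1.07) and Son (0.91) rose by similar amounts. The nuclear long RNAs Malat1, 222, 190.2 and 293 TPM in the wild-type and 718, 655 and 706 TPM in the homozygous libraries (log2 change 1.58, SE 0.15, adjusted p = 0.000255), and Neat1, with a log2 change of 1.12, rose too. Neither overlapped between groups. Srsf2 was the 1 member not called, with a log2 change of 0.08 (adjusted p = 0.484). As a class, the 27 genes made up 0.549% ± 0.0214 in wild-type and 1.00% ± 0.0441 in homozygous libraries (SD, n = 3 each) of named-gene TPM (exact permutation test, two-sided, p = 0.1, the smallest that 3 against 3 allows).

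**Figure D3:**
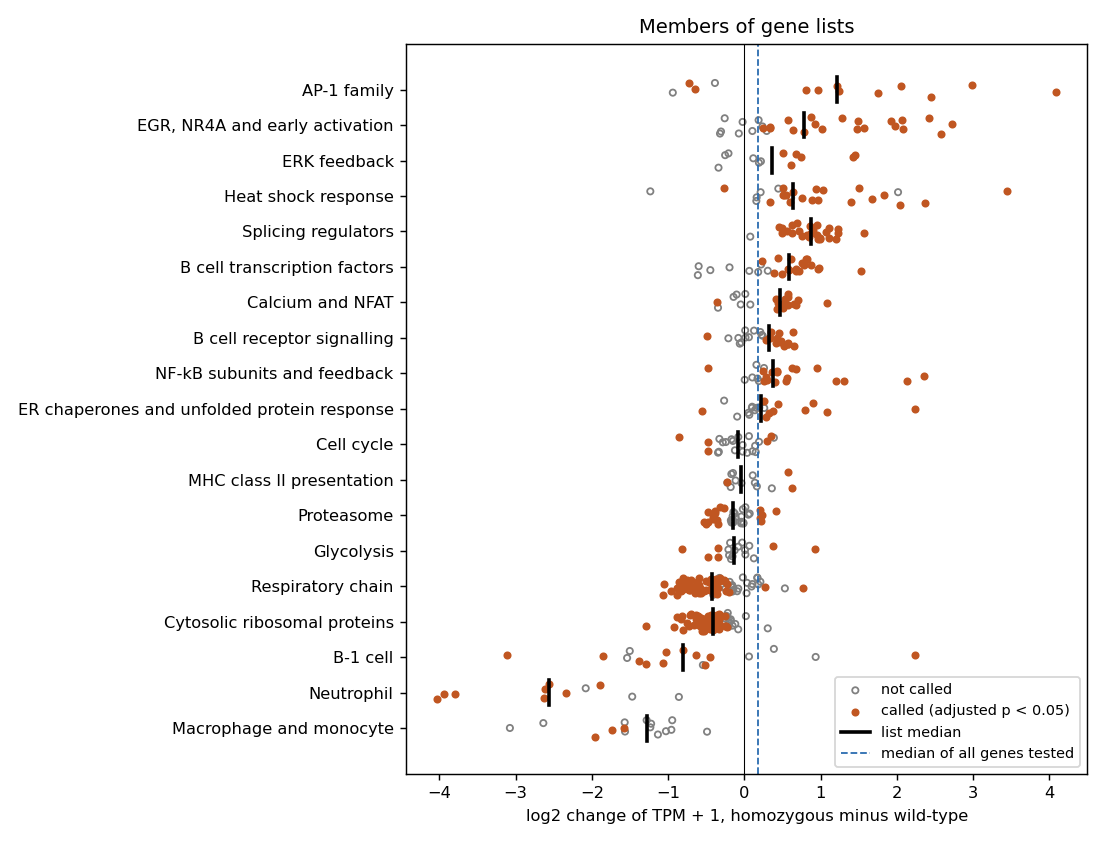
Log2 change of each tested member (horizontal axis, homozygous minus wild-type) by gene list (vertical axis), with filled points for called members, open points for the others, a black bar at each list median and a dashed line at the median of all genes (0.18). Splicing regulators lie to the right of the dashed line with 1 exception, and ribosomal protein and respiratory chain genes lie mostly to the left of 0.

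Small RNA genes gave some of the largest changes. The kit named in the labels, TruSeq RNA v2, is not made for mature microRNAs. Which RNA gave the reads at these genes cannot be told from TPM, and the TPM of such short genes depends strongly on the length used. Of 104 small nucleolar RNA (snoRNA) genes tested, 72 were higher and 0 lower by limma (1 unadjusted), with a median of 0.99. Of 95 microRNA precursor genes, 48 were higher and 1 lower, with a median of 0.95. Some small RNA genes, among them Mir23a, Mir687, Mir342, Mir29a and Snord82, reached 1 TPM only in homozygous libraries. They were tested only because they are high there, so their direction was set by the filter. These counts and medians partly reflect that choice. Leaving out wild-type 1 and 2 gave 58 higher and 4 lower of 102 snoRNA genes and 43 higher and 2 lower of 93 precursor genes, and TMM rescaling gave 61 higher and 2 lower of 104 and 40 higher and 1 lower of 94. SnoRNA genes made up 0.341% ± 0.0458 in wild-type and 0.659% ± 0.0384 in homozygous libraries (SD, n = 3 each) of named-gene TPM, and precursor genes 0.182% ± 0.0431 in wild-type and 0.464% ± 0.0256 in homozygous libraries (SD, n = 3 each). The precursor class, in its counts and its share, also takes in the longer host genes Mir22hg and Mir17hg, both called higher.

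Most snoRNA genes lie within other genes, so each was set beside the gene that contains it. Of 93 snoRNA genes inside 1 other gene, 83 had a larger log2 change than that gene, and the medians were 1.01 for the snoRNA genes and 0.02 for the 68 containing genes, counted once for each snoRNA gene. The 31 in ribosomal protein genes had a median of 0.99 where the containing genes had -0.41. Snora21 stood at 9.47, 5.02 and 11.5 TPM in the wild-type and 51.2, 49.4 and 38.8 TPM in the homozygous libraries (log2 change 2.35), while Rpl23, which contains it, fell by 0.34. Snora52 had a log2 change of 1.72 inside Rplp2, which fell by 0.42. Snora75 stood at 17.9, 14.7 and 7.32 TPM in the wild-type and 88.5, 91.0 and 91.4 TPM in the homozygous libraries (log2 change 2.75) inside Ncl, which encodes the nucleolar protein nucleolin and had 0.20 (not called). In all, 23 snoRNA genes called higher lie in genes called lower, and the plot of small RNA genes against containing genes shows them in its upper left. Reads of a snoRNA gene and of an intron kept in the transcript cannot be told apart here.

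MicroRNA precursor genes followed the same course. Of 73 inside 1 other gene, 61 changed more than that gene, with medians of 0.98 and 0.25. Mir5120 lies in Pax5, the B cell identity factor gene, and its log2 change was 2.68 against 0.79 for Pax5. Mir3064 stood at 211, 218 and 192 TPM in the wild-type and 878, 1018 and 1088 TPM in the homozygous libraries (2.25) inside the RNA helicase gene Ddx5 (0.73). Mir16-1 stood at 9.34, 8.64 and 9.52 TPM in the wild-type and 33.4, 28.5 and 32.1 TPM in the homozygous libraries (1.67) inside Dleu2, which had -0.12 and was not called. None of these 3 precursor genes overlapped between groups. Outside other genes, the neighbouring precursor genes Mir23a, Mir27a and Mir24-2 were near 0 in wild-type cells. Mir24-2 stood at 2.27, 4.13 and 4.14 TPM in the wild-type and 111, 77.0 and 79.1 TPM in the homozygous libraries (log2 change 4.33, SE 0.22, adjusted p = 7.33e-05), Mir23a at 0, 0.536 and 0.492 TPM in the wild-type and 16.7, 13.5 and 15.0 TPM in the homozygous libraries and Mir27a at 1.39, 1.39 and 0 TPM in the wild-type and 12.1, 13.0 and 10.4 TPM in the homozygous libraries.

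The mature microRNAs these precursor genes encode are shown with the seed (bases 2 to 8) in capitals, from RefSeq on GRCm38.p6. They are miR-23a-3p (chr8:84208563-84208583, plus strand), miR-27a-3p (chr8:84208727-84208747, plus strand), miR-24-3p (chr8:84208875-84208896, plus strand) and miR-16-5p (chr14:61631936-61631957, minus strand). The first 3 come from 1 cluster and share no seed. The last is the microRNA that is lost with its neighbour miR-15a in many human chronic lymphocytic leukaemias, and it shares its seed with miR-15a-5p (chr14:61632075-61632096, minus strand).
miR-23a-3p: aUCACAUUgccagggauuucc
miR-27a-3p: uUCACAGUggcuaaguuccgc
miR-24-3p: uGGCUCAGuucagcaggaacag
miR-16-5p: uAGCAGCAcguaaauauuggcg
miR-15a-5p: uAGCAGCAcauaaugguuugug

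**Figure D4:**
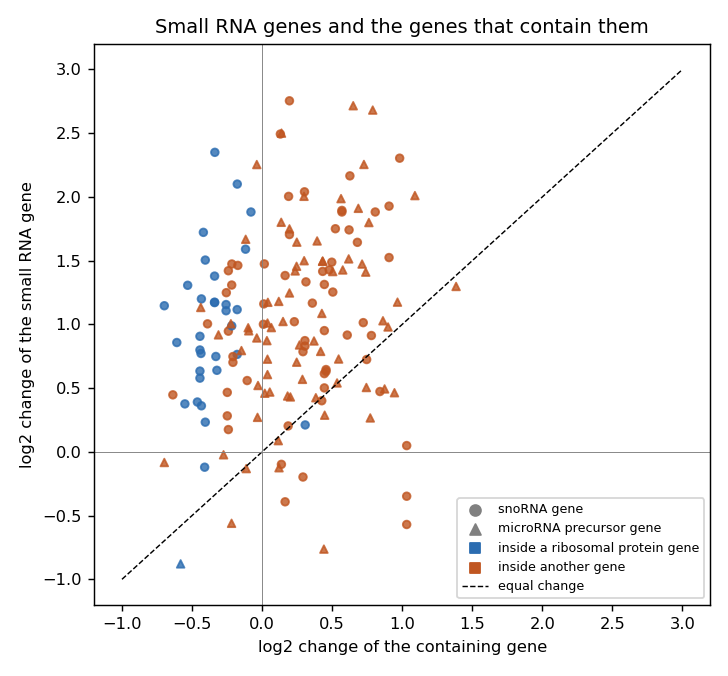
Log2 change of each tested snoRNA (circles) and microRNA precursor gene (triangles) that lies inside 1 other gene (vertical axis) against that of the containing gene (horizontal axis), blue where the containing gene encodes a ribosomal protein. Most points lie above the dashed line of equal change, and the blue circles lie to the left of 0 on the horizontal axis and above 0 on the vertical axis with few exceptions.

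Ribosomal protein genes, the most abundant class of mRNA compared, fell. Of the ribosomal protein genes, 80 were tested, 0 higher (0 unadjusted) and 65 lower, with a median of -0.42. They took up 21.9%, 23.0% and 25.1% in the wild-type and 18.6%, 16.3% and 16.4% in the homozygous libraries of named-gene TPM, so the groups did not overlap (exact permutation p = 0.1, two-sided, the smallest possible). Rps27l stood at 171, 177 and 146 TPM in the wild-type and 65.8, 72.8 and 61.6 TPM in the homozygous libraries (log2 change -1.29, SE 0.10, adjusted p = 7.82e-05) and Rps27 at 5777, 7054 and 8423 TPM in the wild-type and 4160.5, 3587 and 3650.4 TPM in the homozygous libraries (log2 change -0.88, SE 0.14, adjusted p = 0.00123). Ribosomal protein genes have many processed copies that share reads with them, so single values are uncertain. With the male libraries alone, the counts were 0 higher (0 unadjusted) and 59 lower of 80, and the median was -0.56. Of the genes for building ribosomes, 20 were tested, 8 higher and 1 lower, with Gnl3 (0.57) and Nolc1 (0.47) higher. The share higher, 40.0%, was near that of all genes (38.4%). TMM rescaling turned that count to 2 higher and 4 lower, the male libraries gave 1 higher and 0 lower (1 unadjusted) of 20, where 5.00% higher compares with 18.7% of all genes, and 5 were higher without homozygous 2 or without wild-type 1.

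Most nuclear genes of the respiratory chain fell, whereas transcripts made in mitochondria took up overlapping shares in the groups. Of the nuclear genes, 82 were tested, 2 higher and 59 lower, with a median of -0.43. Examples are the ATP synthase genes Atp5k, at 198, 244 and 348 TPM in the wild-type and 137, 112 and 120.0 TPM in the homozygous libraries (log2 change -1.06, SE 0.21, adjusted p = 0.00654), and Atp5g2, at 251, 269.8 and 292 TPM in the wild-type and 114, 113 and 166 TPM in the homozygous libraries (log2 change -1.06, SE 0.15, adjusted p = 0.00117). Each was lower in all homozygous than in all wild-type libraries. The 2 exceptions that rose include Cox20 (0.76), an assembly factor. The share of TPM was 1.46% ± 0.0392 in wild-type and 1.05% ± 0.0482 in homozygous libraries (SD, n = 3 each), and that of the mitochondrially encoded genes 3.02% ± 0.364 in wild-type and 3.12% ± 0.0743 in homozygous libraries (SD, n = 3 each) (exact permutation p = 0.7, two-sided). Of the proteasome genes, 37 were tested, 5 higher and 13 lower, with a median of -0.14: the immunoproteasome subunits Psmb8 (-0.53), Psmb9 (-0.51) and Psmb10 (-0.35) and the standard catalytic subunits Psmb5 (-0.48) and Psmb6 (-0.48) fell, and the regulatory subunits Psmd11 (0.42) and Psmd1 (0.24) rose. Restricted to the 4 male libraries, the counts were 1 higher and 41 lower of 82 for the respiratory chain and 0 higher (2 unadjusted) and 8 lower of 37 for the proteasome. After TMM rescaling they were 1 higher and 68 lower and 1 higher and 27 lower, and the proteasome median became -0.34. The proteasome genes higher fell to 1 without homozygous 2, homozygous 3, wild-type 1 or wild-type 2.

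**Figure D5:**
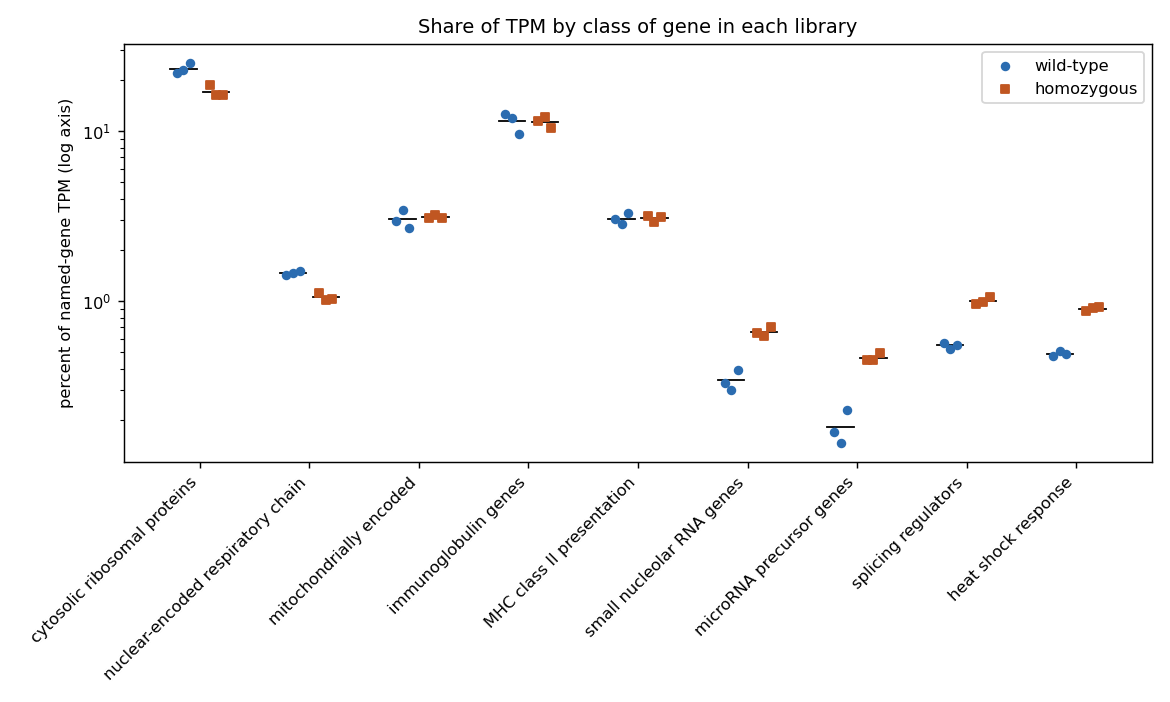
Percent of named-gene TPM (vertical axis, log scale) taken by 9 classes of gene (horizontal axis) in each library, with a line at each group mean. Ribosomal protein and respiratory chain shares are lower in all homozygous libraries, shares of small RNA, splicing and heat shock genes are higher, and those of mitochondrially encoded, immunoglobulin and MHC class II genes overlap.

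Across the whole table, the change of a gene moved with its size. When 11892 tested genes with a genomic span in RefSeq were ordered into 5 bins by span, the median log2 change went from -0.08 in the shortest bin (median span 2678 bases) through 0.09, 0.17 and 0.27 to 0.35 in the longest. The share called higher went from 20.3% to 54.6% and the share called lower from 24.9% to 4.58%. Genes are not independent replicates, so this gradient is given as a description without a test.

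Genes that carry the B cell receptor signal shifted by small amounts. Of the B cell receptor list, 27 were tested, 15 higher and 1 lower (55.6% higher against 38.4% of all genes), with a median of 0.32. The kinase Syk stood at 384, 355 and 383 TPM in the wild-type and 506, 593 and 574 TPM in the homozygous libraries (log2 change 0.57, SE 0.09, adjusted p = 0.00113), with no overlap, and the scaffold genes Malt1 (0.65) and Blnk (0.47) and the kinases Btk (0.45) and Prkcb (0.52) rose. Lyn, the first kinase of the path, had a log2 change of 0.02 (adjusted p = 0.879), and Cd79b, a signalling chain of the receptor, fell by 0.49. Its partner Cd79a was not called (log2 change -0.06, adjusted p = 0.595). A comparison within male libraries gave 4 higher and 1 lower of 27, and TMM rescaling 10 higher and 4 lower. The share higher within male libraries, 14.8%, was below the 18.7% of all genes.

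Calcium signalling genes were called higher more often than lower. Of this list, 20 were tested, 13 higher and 1 lower, with 9 higher and 0 lower (1 unadjusted) of 20 when wild-type 1 and 2 were left out and 11 higher and 3 lower after TMM rescaling. Itpr1, a calcium channel of the endoplasmic reticulum that opens on receptor signals, stood at 34.2, 28.2 and 41.9 TPM in the wild-type and 48.5, 89.3 and 92.5 TPM in the homozygous libraries (log2 change 1.08, SE 0.30, adjusted p = 0.0287). The related channels Itpr2 (0.66) and Itpr3 (0.71), the Ras activators Rasgrp1 (0.53), Rasgrp2 (0.58) and Rasgrp3 (0.68), and the NFAT genes Nfatc1 (0.51), Nfatc2 (0.43) and Nfatc3 (0.57) rose, while the plasma membrane channel Orai3 (-0.36) fell. Of the genes that restrain the receptor, 21 were tested, 10 higher and 4 lower. Their median of 0.16 became -0.04 after TMM rescaling (4 higher and 4 lower). As deposited 47.6% were higher against 38.4% of all genes, and with TMM 19.0% against 23.7%. The ubiquitin ligase gene Cbl stood at 30.1, 24.9 and 31.2 TPM in the wild-type and 60.8, 85.3 and 82.1 TPM in the homozygous libraries (log2 change 1.37, SE 0.14, adjusted p = 0.000347), and Dgka (0.75), which removes diacylglycerol, and the inhibitory lectin genes Siglecg (0.75) and Cd22 (0.41) rose. The Fc receptor gene Fcgr2b (-0.30) and Lair1 (-1.16), both also expressed in myeloid cells, fell. For the 4 male libraries, the counts were 4 higher and 0 lower (4 unadjusted) of 21, and the members higher were 5 without homozygous 3 and 6 without wild-type 1.

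In the NF-kB system the rises were largest for atypical inhibitors. Of the list, 24 were tested, 17 higher and 1 lower, with a median of 0.38. Nfkbid, a nuclear IκB protein needed for B cell development and antibody responses, stood at 82.9, 69.2 and 91.8 TPM in the wild-type and 456, 401 and 393 TPM in the homozygous libraries (log2 change 2.35, SE 0.11, adjusted p = 4.57e-06), and Nfkbiz, its relative, at 21.2, 22.3 and 21.4 TPM in the wild-type and 99.6, 95.9 and 101 TPM in the homozygous libraries (log2 change 2.14, SE 0.07, adjusted p = 9.33e-07). The subunit gene Rel stood at 63.0, 56.2 and 79.4 TPM in the wild-type and 149.8, 169.8 and 172 TPM in the homozygous libraries (log2 change 1.31, SE 0.13, adjusted p = 0.000228), and the deubiquitinase gene Tnfaip3 (1.21) rose. All homozygous libraries were above all wild-type libraries for Nfkbid, Nfkbiz and Rel. The classical target Nfkbia had a log2 change of 0.01 (adjusted p = 0.967), and the adhesion gene Icam1 fell by 0.47. The male libraries alone gave 8 higher and 0 lower (1 unadjusted) of 24, and TMM rescaling 11 higher and 1 lower.

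Cytokine signalling genes were divided by role. Of the JAK, STAT, SOCS and PIM genes, 18 were tested, 11 higher and 2 lower. The kinase genes of the PIM family, which promote growth and survival, rose, with Pim3 at 23.5, 22.1 and 24.6 TPM in the wild-type and 55.6, 57.7 and 55.3 TPM in the homozygous libraries (log2 change 1.23, SE 0.08, adjusted p = 2.58e-05), Pim2 (1.01) and Pim1 (0.99). The inhibitor genes Socs3, at 9.93, 12.6 and 10.6 TPM in the wild-type and 4.82, 3.74 and 3.84 TPM in the homozygous libraries (log2 change -1.23, SE 0.14, adjusted p = 0.00036), and Socs1, at 5.71, 5.04 and 3.69 TPM in the wild-type and 1.72, 1.11 and 2.03 TPM in the homozygous libraries (log2 change -1.15, SE 0.20, adjusted p = 0.00177), fell. The groups did not overlap for Pim3 or for the SOCS genes. When only male libraries were compared, the counts were 5 higher and 1 lower of 18, and TMM rescaling gave 8 higher and 2 lower. Of the interferon response genes, 24 were tested, 2 higher and 6 lower, with a median of -0.30 and with Isg15 (-1.14), Rtp4 (-1.10), Ifi27l2a (-1.13) and Oasl2 (-0.94) lower. Of the Toll-like receptor list, 18 were tested, 5 higher and 4 lower, among them Tlr2 (-0.74) and Tlr6 (-1.07) lower, both of which neutrophils and macrophages also express, and Tlr9 (0.43) and Tlr1 (0.35) higher. Male libraries by themselves gave 2 higher and 3 lower of 24 for the interferon list and 2 higher and 2 lower of 18 for the Toll-like receptor list. TMM rescaling moved both towards lower, with 2 higher and 12 lower for the interferon list (median -0.50) and 2 higher and 8 lower for the Toll-like receptor list. Interferon response genes lower were 3 without homozygous 3.

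Most transcription factor genes of the B cell programme were higher. Of this list, 27 were tested, 19 higher and 0 lower (1 unadjusted), with a median of 0.58. Irf4, which is induced by antigen and needed for plasma cells, stood at 67.7, 66.3 and 83.6 TPM in the wild-type and 212, 214 and 205 TPM in the homozygous libraries (log2 change 1.53, SE 0.10, adjusted p = 2.93e-05). Bach2, which holds B cells back from plasma cell fate, stood at 40.1, 33.5 and 43.3 TPM in the wild-type and 68.1, 81.1 and 83.6 TPM in the homozygous libraries (log2 change 0.98, SE 0.12, adjusted p = 0.000433), and Pax5 at 208, 167 and 254 TPM in the wild-type and 353, 358 and 363 TPM in the homozygous libraries (log2 change 0.79, SE 0.14, adjusted p = 0.00213). None of these 3 overlapped between groups. Ebf1 (0.72), Pou2f1 (0.97), Runx3 (0.87), Foxo1 (0.82), Aff3 (0.81), Bcl11a (0.79) and Bcl6 (0.68) rose too, and Prdm1 (0.31, adjusted p = 0.189), the plasma cell factor, and Spi1 (-0.19, adjusted p = 0.126) were not called. Comparing only male libraries gave 12 higher and 1 lower of 27, TMM rescaling 15 higher and 2 lower, and leaving out wild-type 3 gave 3 lower. Of the NuRD subunits with which Aiolos works, 13 were tested, 7 higher and 0 lower (0 unadjusted): the remodelling ATPase genes Chd3, at 44.4, 40.2 and 55.4 TPM in the wild-type and 108, 131 and 126 TPM in the homozygous libraries (log2 change 1.37, SE 0.13, adjusted p = 0.000187), and Chd4 (0.42), and the scaffold genes Gatad2b (0.96), Gatad2a (0.41) and Mta3 (0.55) rose, and Hdac1 (0.01, adjusted p = 0.948), Hdac2 (0.19, adjusted p = 0.0989) and Mbd3 (0.19, adjusted p = 0.103) were not called. Among the male libraries, the NuRD counts were 3 higher and 0 lower (0 unadjusted) of 13, and after TMM rescaling 3 higher and 0 lower (1 unadjusted). The share higher was 53.8% as deposited against 38.4% of all genes, and 23.1% after TMM rescaling against 23.7%.

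Markers of B cell subsets differed in direction by subset, with most B-1 cell genes lower and most follicular genes higher. B-1 cells are an innate-like subset, rare in spleen, that carries Cd5. Of its list, 17 were tested, 1 higher and 10 lower, with a median of -0.80, 2 higher and 9 lower of 17 without wild-type 1 and 2, and 1 higher and 12 lower after TMM rescaling. Zbtb32, a repressor typical of these cells, stood at 5.42, 6.02 and 3.76 TPM in the wild-type and 2.06, 1.72 and 1.78 TPM in the homozygous libraries (log2 change -1.07, SE 0.18, adjusted p = 0.00145), and Lgals1, which encodes galectin-1, at 53.5, 80.1 and 47.6 TPM in the wild-type and 17.0, 14.5 and 15.3 TPM in the homozygous libraries (log2 change -1.85, SE 0.19, adjusted p = 0.000488). Both were lower in all homozygous libraries. Spn (-1.38), Nid1 (-1.29) and Plscr1 (-0.80) fell as well. S100a6 (-3.12) and Vim (-1.02) are also abundant in myeloid cells, whose markers differed between groups as given above. In the wild-type group Lgals1, Zbtb32, S100a6 and Spn were highest in library 2 and lowest in library 3. The macrophage and monocyte sum had the same order. Spn stood at 22.0, 28.1 and 15.5 TPM there, whereas Nid1 was even, at 9.29, 9.02 and 8.98 TPM. The part of myeloid cells in the falls of this list was not tested. Cd5 itself was low in all libraries, at 2.79, 3.44 and 3.57 TPM in the wild-type and 3.70, 3.44 and 3.19 TPM in the homozygous libraries, and was not called. The 1 member that rose was Ctla4, an inhibitory receptor, at 1.29, 1.13 and 0.516 TPM in the wild-type and 8.71, 9.06 and 6.89 TPM in the homozygous libraries (log2 change 2.23, SE 0.19, adjusted p = 0.000139).

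Of the follicular B cell genes, 8 were tested, 6 higher and 1 lower. The low-affinity IgE receptor gene Fcer2a (0.75), the chromatin organiser Satb1 (0.73), the complement regulator Cd55 (0.67) and the homing receptor Ccr7 (0.58) rose, and the chemokine receptor that leads B cells into follicles fell, with Cxcr5 at 255, 259.9 and 330.0 TPM in the wild-type and 157, 175 and 172 TPM in the homozygous libraries (log2 change -0.73, SE 0.11, adjusted p = 0.00105). Of the marginal zone genes, 14 were tested, 4 higher and 6 lower, with the receptor gene Notch2 (0.61) and the complement receptor gene Cr2 (0.34) higher and the Notch targets Dtx1 (-0.62) and Hes5 (-0.78) lower. Ccdc28b stood at 29.4, 30.4 and 32.4 TPM in the wild-type and 10.1, 9.67 and 11.5 TPM in the homozygous libraries (log2 change -1.48, SE 0.10, adjusted p = 3.11e-05), with no overlap. Of the germinal centre and plasma cell genes, 12 were tested, 1 higher and 2 lower. A comparison within male libraries gave 5 higher and 1 lower of 8 for the follicular, 3 higher and 3 lower of 14 for the marginal zone and 0 higher (1 unadjusted) and 0 lower (1 unadjusted) of 12 for the germinal centre and plasma cell list. With TMM rescaling they were 5 higher and 1 lower, 2 higher and 8 lower and 0 higher (0 unadjusted) and 3 lower in the same order. Immunoglobulin genes made up 11.4% ± 1.55 in wild-type and 11.3% ± 0.791 in homozygous libraries (SD, n = 3 each) of named-gene TPM (exact permutation p = 1, two-sided). The IgD gene Ighd (0.46) rose, and Ighm was not called (0.20, adjusted p = 0.169).

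Surface and secreted molecules changed gene by gene. Among costimulation and cytokine genes the share called higher, 41.7%, was close to the 38.4% of all genes. Of the costimulation and cytokine genes, 24 were tested, 10 higher and 2 lower, with 7 higher and 4 lower of 24 when wild-type 1 and 2 were left out and 8 higher and 5 lower after TMM rescaling. The anti-inflammatory cytokine gene Il10 (1.52), the chemokine gene Ccl4 (1.52), the checkpoint ligand gene Cd274 (0.92) and the cytokine receptor genes Il2ra (0.68), Il21r (0.66) and Il2rg (0.67) rose, and the costimulatory receptor gene Cd40 (-0.41) fell. Cd80 and Cd86, which activated B cells raise, were not called, with log2 changes of -0.24 (adjusted p = 0.364) and -0.24 (adjusted p = 0.12). Cxcr4, which guides B cells to bone marrow and to germinal centre dark zones, stood at 361, 317 and 207 TPM in the wild-type and 834, 820.4 and 812 TPM in the homozygous libraries (log2 change 1.51, SE 0.20, adjusted p = 0.00122), with no overlap. Of the homing and adhesion list, 25 were tested, 5 higher and 7 lower, with Cxcr3 (-1.03), Selplg (-0.82) and Itgb2 (-0.45) lower, genes that T cells and myeloid cells also express. The male libraries alone gave 2 higher and 2 lower of 25, TMM rescaling 3 higher and 11 lower (median -0.31), and leaving out wild-type 3 gave 8 higher. The MHC class II list had 2 higher (5 without wild-type 3) and 1 lower of 13 as deposited, 2 higher and 2 lower of 13 among male libraries and 2 higher and 3 lower after TMM rescaling, and its share of TPM was 3.06% ± 0.238 in wild-type and 3.07% ± 0.112 in homozygous libraries (SD, n = 3 each).

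Survival genes included 1 large rise. As a list, 33.3% of the BCL2 family were called higher and 26.7% lower, against 38.4% and 12.6% of all genes. Pmaip1, which encodes the death-promoting BH3-only protein NOXA, stood at 21.1, 24.1 and 26.9 TPM in the wild-type and 124, 112 and 104 TPM in the homozygous libraries (log2 change 2.20, SE 0.11, adjusted p = 4.57e-06), with no overlap. Bcl2 (0.59) and its opponent Bcl2l11 (0.57) both rose, and Bad (-0.44), Bmf (-0.51) and Bak1 (-0.51), which promote death, fell. Bcl2a1a, which is not one of these death-promoting genes, had the largest fall of the list (log2 change -0.84, SE 0.24, adjusted p = 0.0259). In all, of the BCL2 family, 15 were tested, 5 higher and 4 lower, with 1 higher and 2 lower of 15 when wild-type 1 and 2 were left out, and TMM rescaling turned the balance to 3 higher and 6 lower. Of the p53 targets, 11 were tested, 8 higher and 0 lower (0 unadjusted), with 7 higher and 0 lower (0 unadjusted) of 11 when wild-type 1 and 2 were left out and 7 higher and 1 lower after TMM rescaling. Plk2 stood at 6.89, 5.73 and 6.57 TPM in the wild-type and 40.7, 34.5 and 33.6 TPM in the homozygous libraries (log2 change 2.33, SE 0.11, adjusted p = 4.57e-06), and Plk3 (1.10), Aen (0.81) and Mdm2 (0.59) rose, but Cdkn1a, the main arrest gene of p53, was not called (-0.41, adjusted p = 0.143).

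Few proliferation genes were called as deposited, and the number called lower depended on the scaling. Of the cell cycle list, 23 were tested, 2 higher (8.70% against 38.4% of all genes) and 3 lower (13.0% against 12.6%). The 3 lower were Ccnb1 (-0.85), Cdk1 (-0.48) and Ccnb2 (-0.47), with no overlap between groups, and E2f1 (0.35) was among the higher. Mki67 and Top2a were not called (0.39, adjusted p = 0.0663, and 0.14, adjusted p = 0.234). TMM rescaling gave 0 higher (0 unadjusted) and 9 lower, with a median of -0.27, and the male libraries alone 0 higher (2 unadjusted) and 0 lower (1 unadjusted) of 23. Cdk6, a kinase of the G1 phase, stood at 5.08, 5.22 and 4.54 TPM in the wild-type and 15.5, 18.9 and 21.3 TPM in the homozygous libraries (log2 change 1.71, SE 0.13, adjusted p = 7.92e-05), and its target Rb1, the retinoblastoma gene, rose by 1.09. The groups did not overlap for Cdk6. The D cyclin genes Ccnd2 and Ccnd3 had log2 changes of -0.08 (adjusted p = 0.615) and -0.00 (adjusted p = 0.983).

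The counts of metabolic lists depended on the scaling, and single genes moved far. Gla, the lysosomal enzyme α-galactosidase A, stood at 3.25, 2.64 and 2.73 TPM in the wild-type and 42.7, 36.3 and 33.8 TPM in the homozygous libraries (log2 change 3.32, SE 0.12, adjusted p = 1.43e-06), while of the whole lysosome list 20 were tested, 4 higher and 3 lower. On the X chromosome Gla lies at chrX:134588169-134601005. Of the glycolysis genes, 18 were tested, 2 higher and 4 lower, with the glucose transporter gene Slc2a3 (0.93) higher and Ldha (-0.47) and Aldoc (-0.82) lower. Of the sterol genes, 18 were tested, 5 higher and 1 lower. TMM rescaling moved all 3 lists towards lower, with 3 higher and 8 lower for the lysosome (median -0.37), 1 higher and 11 lower for glycolysis (median -0.34) and 0 higher (1 unadjusted) and 2 lower for sterols. Male libraries by themselves gave 3 higher and 0 lower (0 unadjusted) of 20 for the lysosome, 1 higher and 3 lower of 18 for glycolysis and 1 higher and 0 lower (1 unadjusted) of 18 for sterols. Sterol genes higher were 1 without homozygous 2 or without wild-type 1, and lysosome genes lower were 0 without homozygous 3 or wild-type 1 and 10 without wild-type 3. Outside the lists, Irs2, an adaptor of insulin and cytokine receptors, stood at 11.0, 7.96 and 10.0 TPM in the wild-type and 57.8, 50.0 and 49.0 TPM in the homozygous libraries (log2 change 2.33, SE 0.12, adjusted p = 9.1e-06), and Gad1, the enzyme that makes the transmitter GABA, at 5.87, 6.42 and 6.95 TPM in the wild-type and 34.5, 30.9 and 30.6 TPM in the homozygous libraries (log2 change 2.15, SE 0.10, adjusted p = 4.57e-06). Gem, a small GTPase induced in activated lymphocytes, stood at 17.3, 18.7 and 17.4 TPM in the wild-type and 121, 89.7 and 102 TPM in the homozygous libraries (log2 change 2.47, SE 0.11, adjusted p = 3.91e-06). All 3 were higher in every homozygous library.

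Clock and hormone responsive genes were compared because they move with time of day and with stress hormones. Of the clock genes, 12 were tested, 7 higher and 0 lower (0 unadjusted), with 2 higher and 0 lower (0 unadjusted) of 12 when wild-type 1 and 2 were left out (4 higher without homozygous 3) and 4 higher and 1 lower after TMM rescaling. The shares higher were 58.3% as deposited and 33.3% with TMM, against 38.4% and 23.7% of all genes. Ciart stood at 4.14, 4.23 and 3.44 TPM in the wild-type and 32.2, 26.7 and 27.4 TPM in the homozygous libraries (log2 change 2.59, SE 0.12, adjusted p = 4.01e-06), and Per1, which is also an immediate early gene, at 18.4, 16.3 and 22.7 TPM in the wild-type and 81.5, 70.7 and 68.7 TPM in the homozygous libraries (log2 change 1.90, SE 0.12, adjusted p = 3.11e-05). Dbp and Nr1d1, the genes of widest daily swing in most tissues, were not called (log2 changes -0.31, adjusted p = 0.146, and 0.26, adjusted p = 0.185). Of 7 glucocorticoid responsive genes, Tsc22d3 (0.81) and Sgk1 (0.56) rose, and Ddit4, an inhibitor of the growth kinase mTORC1, fell, at 126, 119.9 and 78.2 TPM in the wild-type and 29.7, 30.4 and 29.3 TPM in the homozygous libraries (log2 change -1.79, SE 0.17, adjusted p = 0.000442). The glucocorticoid counts were 2 higher and 1 lower of 7 among male libraries. The labels give no time of collection.

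Many of the largest falls were of genes of myeloid cells. Among called genes with a mean of at least 10 TPM and groups that do not overlap, the 12 largest falls were those of S100a9, S100a8, Retnlg, Hp, Wfdc17, S100a6, Saa3, Ccl6, Ifitm2, S100a4, Lcn2 and Mmp9, with log2 changes from -4.03 to -2.62, and most are products of neutrophils or monocytes. Chil3 (-3.67), Lyz2 (-3.07) and Ccr2 (-2.64), also of myeloid cells, had changes in this range and were not called. Of the neutrophil list, 11 were tested, 0 higher (0 unadjusted) and 8 lower, and of the macrophage and monocyte list 15 were tested, 0 higher (0 unadjusted) and 3 lower. Restricted to the 4 male libraries, these became 0 higher (0 unadjusted) and 4 lower of 10 and 0 higher (0 unadjusted) and 0 lower (0 unadjusted) of 14. Of the T cell list, 12 were tested, 0 higher (0 unadjusted) and 3 lower, and of the NK cell list 6 were tested, 0 higher (0 unadjusted) and 1 lower. The erythroid and the platelet lists had 0 called of 10 and of 5 by limma (0 and 1 unadjusted). Male libraries gave 0 higher (0 unadjusted) and 5 lower of 10 T cell genes, 0 higher (0 unadjusted) and 2 lower of 5 NK cell genes, 0 higher (0 unadjusted) and 0 lower (1 unadjusted) of 10 erythroid and 0 higher (0 unadjusted) and 0 lower (0 unadjusted) of 5 platelet genes. Single libraries weigh on these counts: neutrophil genes lower were 4 without homozygous 2 and 5 without homozygous 3, macrophage and monocyte genes lower were 12 without wild-type 3, and T cell genes lower were 9 without wild-type 1.

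Crip1, Ebi3 and Ass1, picked after their values were seen, also fell. Crip1, a LIM domain protein gene, stood at 567, 566 and 608 TPM in the wild-type and 163, 141 and 156 TPM in the homozygous libraries (log2 change -1.92, SE 0.08, adjusted p = 3.91e-06). Ebi3, a subunit of the cytokines IL-27 and IL-35, stood at 15.5, 16.1 and 16.9 TPM in the wild-type and 4.23, 4.67 and 4.72 TPM in the homozygous libraries (log2 change -1.63, SE 0.10, adjusted p = 2.96e-05), and Ass1, an enzyme of arginine synthesis, at 18.6, 22.9 and 20.0 TPM in the wild-type and 5.96, 6.88 and 5.29 TPM in the homozygous libraries (log2 change -1.61, SE 0.12, adjusted p = 7.92e-05). For these 3 genes the wild-type libraries lay close together and every homozygous library lay far below them. For the 4 male libraries, the log2 changes were -1.99 with adjusted p = 3.39e-05 for Crip1, -1.69 with adjusted p = 0.00106 for Ebi3 and -1.58 with adjusted p = 0.00173 for Ass1.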

How the data were processed

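RNA-seq was made from purified splenic B cells with the TruSeq RNA v2 kit, per the labels' protocols. The values are TPM computed by the authors and deposited in 1 table (the values of each library add up to the full scale). The submitters' processing notes name build mm10 and, with no role stated, STAR 2.4.0.1 among the tools for all assays. Counting tool, annotation and strandedness: not given in the sources used here, so overlapping and antisense genes cannot be told apart. TPM keeps no read counts, so depth is unknown. Left out were 887 rows with no gene name, which hold 4.44% to 9.36% of TPM, and 26 with spreadsheet dates for names. Genes with at least 1 TPM in 3 libraries were compared as log2(TPM + 1), which understates changes of low genes, with limma 3.58.1 in R 4.3.3 (trend, robust, two-sided, Benjamini-Hochberg). On simulated data with 12071 genes, changes of 1 and 2 on the log2 scale were recovered for 87% and 100% of 100 genes each. False calls made up 6.03% of calls there. The simulation had independent noise, no general shift and no difference in sex or other cells. These shares therefore do not measure recovery or false calls in the real comparison. Alternatives were pseudocounts of 0.1 and 5, other minimums, TMM (trimmed mean of log ratios, on TPM), TPM rescaled without the most abundant classes, limma without trend and robust, a replicate block, and libraries left out. The replicate numbers do not pair the libraries. Names were matched to RefSeq on GRCm38.p6 for 25054 of 26266 symbols, and promoters and microRNAs come from RefSeq tables of that build.

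The members and the 50 gene lists were chosen with earlier results of these data known. Genes named were Ikzf3, Ms4a1, Ptprc, Cd5 and the Ikaros family, up to 4 members per list with the largest called changes that do not overlap (mean of at least 5 TPM), the 12 largest changes each way (mean of at least 10 TPM) and the 2 highest markers of each other cell. Some genes under this rule are not reported here. Further list members, small RNA genes, promoters and other genes were named after their values were seen. All fold changes are homozygous minus wild-type.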

Additional observations from a re-analysis of the deposited data

How the results depend on the processing

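Genes higher and lower numbered 4698 and 1539 as reported, 2900 and 2656 after TMM rescaling, 3113 and 889 with a minimum of 20 TPM (fewer genes tested), and 2221 and 720 without wild-type 1 and 2 (fewer samples). Leaving out 1 library gave 3469 to 4984 higher and 1042 to 1876 lower. With the replicate number as a block the counts were 4821 and 1810. The numbers share no pairing: deviations of same-numbered libraries correlated at -0.10, 0.24 and 0.32. Among 180 named genes, pseudocounts of 0.1 and 5 changed no call or direction. The log2 changes that turned sign were all of genes not called: Ms4a1 (-0.0049 with TMM), Cd5 (-0.091 with TMM, -0.053 rescaled without abundant classes, -0.041 without wild-type 1 and 2, -0.021 to 0.11 leaving out 1 library), Ikzf1 (-0.098 with TMM, -0.050 rescaled), Pecam1 (-0.084 with TMM, -0.036 rescaled, -0.033 without wild-type 1 and 2), Cd8a (-0.11 with TMM, -0.065 rescaled, -0.40 without wild-type 1 and 2, -0.22 to 0.30 leaving out 1 library) and Car2 (-1.01 to 0.19 leaving out 1 library). The cause was not tested. The difference in the heat shock share of TPM, 0.408 points, was 0.383 over all rows. With windows cut to the 250 bases before the start, heat shock elements lay in 10.5% of windows of genes tested, 10.2% of higher genes and 12.8% of all promoters, AP-1 sites in 3.02% of tested and 4.46% of all, CREs in 2.64% and 1.55%, CArG boxes in 1.47% of all, and Ikaros cores in 20.3% of tested, 19.2% of higher, 24.1% of lower and 21.6% of all. Depth is unknown, so no counting error can be given for genes of low TPM.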

Other observations

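A few values belong to none of the groups above, and the genes were picked with their values in view. The snoRNA genes inside the chaperone gene Hspa8 went against the other snoRNA genes: Hspa8 stood at 948, 963 and 871 TPM in the wild-type and 1646, 2150.3 and 1924 TPM in the homozygous libraries (log2 change 1.03), and Snord14e within it at 66.2, 101 and 302 TPM in the wild-type and 84.2, 76.3 and 95.5 TPM in the homozygous libraries (log2 change -0.57, adjusted p = 0.477), with wild-type 3 far above the other libraries. Mir682, outside other genes, stood at 348, 316 and 901 TPM in the wild-type and 201, 223 and 172 TPM in the homozygous libraries and was not called (adjusted p = 0.0794). The pseudogene Rpl34-ps1 stood at 45.9, 43.1 and 44.1 TPM in the wild-type and 232, 613 and 381 TPM in the homozygous libraries (log2 change 3.07, SE 0.36, adjusted p = 0.00225), opposite to the fall of the ribosomal protein genes, and its reads can be shared with Rpl34 and its other copies. The Y-linked gene Ddx3y stood at 54.3 TPM in wild-type 3 and at 107 to 148 TPM in homozygous cells, although none of these 4 held more than 0.0567 TPM of Xist. Rhob, a small GTPase gene that is also induced early after stimulation, stood at 40.4, 39.7 and 25.1 TPM in the wild-type and 161, 161 and 155 TPM in the homozygous libraries (log2 change 2.18, SE 0.18, adjusted p = 0.000286).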
